A study of Rattus norvegicus with 46 samples.

Results

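The comparison described here sets the livers of food-restricted rats against the livers of freely fed controls, gene by gene. It rests on 16 of the 46 libraries of the series: 8 from the Weight matched group and 8 from the Vehicle group. All rats of the study were DIO (diet-induced obese) and wild type (WT) in genotype, and the livers were collected after 20 days. Weight-matched rats had their food restricted so that their body weight followed that of rats given CagriSema, a drug combination for obesity, and vehicle rats received the carrier without the drug. A further 7 CagriSema livers entered the statistical fit to inform the estimate of spread and are otherwise quoted only beside a few genes. Strain, sex, age and hour of collection are not stated in the labels. Nor is it stated whether the libraries of a group are different animals, and the p-values cover only the spread between libraries, which may be technical. Of 32552 genes in the count table, 12702 passed the low-count filter and were tested, and 12762 were tested when vehicle libraries 4 and 6 were left out.

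The liver stores incoming sugar as glycogen and turns the surplus into fatty acids, which it packs into triglyceride with glycerol and exports in lipoproteins or keeps in lipid droplets. In the fed state insulin and sugar switch on the genes of fat and cholesterol synthesis through the transcription factors SREBP and ChREBP. When food is short, the liver instead burns fatty acids, makes glucose from amino acids and lactate, and lowers the growth signals that depend on feeding. Many liver genes also follow a daily rhythm that meal times can set.

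Levels are given in CPM, read counts relative to the size of the library after scaling by the TMM factors of edgeR, as the lowest, the median and the highest library of a group. Changes are log2 fold changes of weight-matched over vehicle livers with their standard error (SE). Adjusted p-values come from the quasi-likelihood test of edgeR and were adjusted by the Benjamini-Hochberg method over all genes tested, and a gene that passed the test had an adjusted p under 0.05. Because the tissue was measured in bulk, fewer cells of a type and less RNA per cell cannot be told apart.

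Library totals ran from 9987638 to 15929822 counts in the vehicle group and from 9888858 to 15665320 in the weight-matched group. At these depths 3 counts correspond to 0.183 to 0.364 CPM. Vehicle libraries 4 and 6 stood apart from the other 6 vehicle libraries. They had been singled out beforehand for transcript-length bias and mitochondrial share. Length bias was not measured here, and its part in the levels of these 2 libraries was not tested. Principal component 1 carried 35.9% of the variance. Library 4 lay at 134 on it and had 1.84% of its counts on ribosomal protein genes against 0.638% to 0.871% in the other vehicle libraries. Library 6 lay at 39.1 and had 9.29% of its counts on mitochondrially encoded genes against 4.25% to 5.37%. The weight-matched libraries were tighter, between -14.7 and -6.13 on that component. The counts over all genes and over the pathway lists are therefore given with all libraries and again without vehicle libraries 4 and 6. On the second component the weight-matched libraries lay between -21.0 and -3.43 and the vehicle libraries other than 4 between -1.14 and 32.5. Vehicle library 4, at -18.3, lay inside the weight-matched range there, and apart from it vehicle library 7 and weight-matched library 32 lay closest to the other group. Of the 405 genes lower in both fits, vehicle library 7 was the lowest vehicle library for 179 (44.2%) and weight-matched library 32 the highest weight-matched library for 130 (32.1%).

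**Figure D1:**
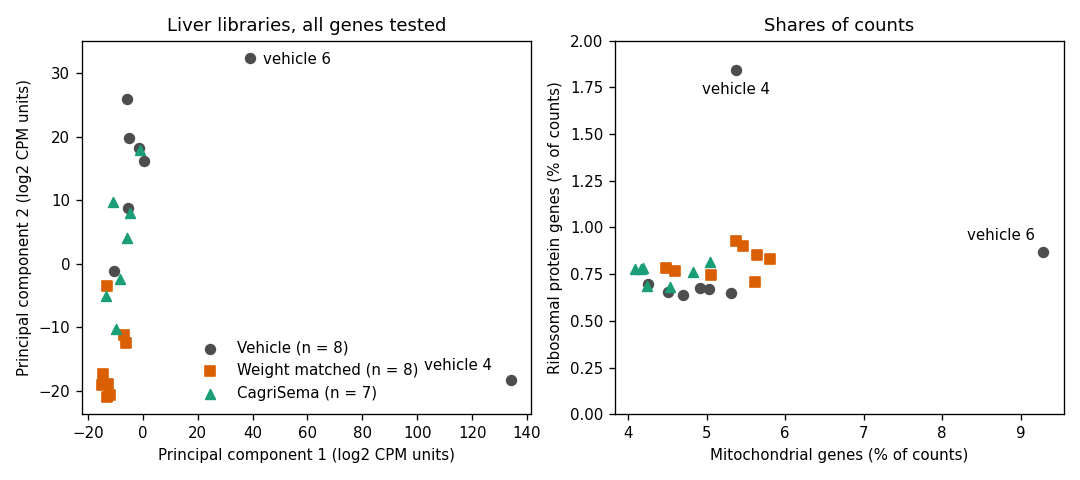
The left panel places the 23 liver libraries on the first and second principal components of all tested genes, in log2 CPM units, and the right panel plots the share of counts on ribosomal protein genes against the share on mitochondrially encoded genes, both in percent. Points are libraries (8 vehicle, 8 weight matched, 7 CagriSema). Vehicle library 4 lies at 134 on the first component and vehicle library 6 at 39.1, while the weight-matched libraries lie between -14.7 and -6.13.

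With all libraries, 892 of 12702 genes passed the test, or 7.02%: 316 (2.49%) were higher and 576 (4.53%) lower in weight-matched livers. Without vehicle libraries 4 and 6, 1042 genes passed (8.16%), with 458 higher (3.59%) and 584 lower (4.58%). The 2 fits shared 638 genes (5.03% of 12694), 233 higher (1.84%) and 405 lower (3.19%), and none of them changed direction. Of these shared genes, 132 changed by more than 2-fold in both fits. For 489 of the 638 the change was smaller once libraries 4 and 6 were gone. Scaling by library totals alone, in place of TMM factors, moved the median of all genes from -0.014 to 0.108 on the log2 scale and turned the split to 563 higher and 282 lower. The balance of higher and lower genes therefore depends on the scaling, and the changes below are relative to the TMM scale.

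**Figure D2:**
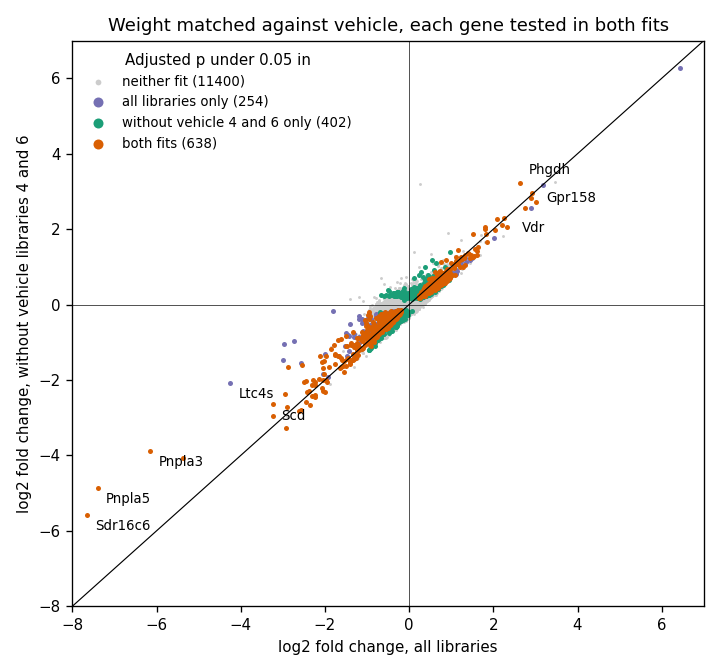
Each point is a gene tested in both fits, with the log2 fold change of weight matched over vehicle from all libraries on the horizontal axis and without vehicle libraries 4 and 6 on the vertical axis. Orange points passed the test in both fits (638 genes), purple in the fit of all libraries only (254) and green without the 2 libraries only (402 of the 404 such genes, since the others were not tested with all libraries). The line marks equal values, and the lower left shows Sdr16c6, Pnpla5 and Pnpla3 falling less far without the 2 libraries.

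Of the 638 genes, 357 also passed by DESeq2, in the fit of the 2 groups alone and in every fit that left out 1 library (16 fits). For 79 of these 357 the groups did not overlap at all, 30 higher and 49 lower. Over all tested genes, groups without overlap were found for 45 higher (0.354%) and 58 lower (0.457%), and without vehicle libraries 4 and 6 for 93 higher (0.729%) and 106 lower (0.831%). Of the 10 of lowest p among the 79, 9 are described next, chosen because they passed all the fits named above and did not overlap.

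Cmtm6 (ENSRNOG00000010951), which encodes a membrane protein that keeps the immune checkpoint ligand PD-L1 at the cell surface, ran from 52.4 through 69.5 to 87.6 CPM in vehicle livers and from 31.4 through 38.1 to 45.4 CPM in weight-matched livers. Its lowest vehicle library still lay above its highest weight-matched library. The log2 fold change was -0.88 (SE 0.10, adjusted p = 5.37e-05), and -0.80 without libraries 4 and 6. Kynu, the kynureninase gene of tryptophan breakdown, stood at 59.0, 101 and 149 CPM in vehicle and at 31.6, 40.9 and 48.3 CPM in weight-matched livers, a 2.43-fold fall (log2 -1.28, SE 0.15, adjusted p = 8.6e-05). All 8 weight-matched values were below all 8 vehicle values. Glyatl2, which encodes a glycine acyltransferase-like enzyme, went the other way, from 60.1, 80.6 and 108 CPM to 139, 164 and 223 CPM (log2 1.06, SE 0.13, adjusted p = 0.000191).

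The receptor gene for vitamin D, Vdr, stayed at 1.07 CPM or less in every vehicle library, with none detected in library 4. In weight-matched livers Vdr lay between 2.2 and 5.27 CPM with a median of 3.74 CPM, so the groups were apart although both levels are low. The fitted change was 2.75 (SE 0.39, adjusted p = 0.000782), and 2.55 without libraries 4 and 6. Ldha, the lactate dehydrogenase A gene that links pyruvate and lactate, fell from 963, 1310 and 2200 CPM to 373, 519 and 901 CPM (log2 -1.23, SE 0.18, adjusted p = 0.000782). P2ry2, a receptor gene for extracellular ATP and UTP, fell 2.48-fold, from 51.1, 73.8 and 112 CPM to 22.9, 32.3 and 40.6 CPM (adjusted p = 0.000802). Cnn3, which encodes the actin-binding protein calponin 3, rose from 91.4, 111 and 137 CPM to 158, 189 and 205 CPM (log2 0.70, SE 0.10, adjusted p = 0.000802). The gene listed as RGD1562690 fell 2.48-fold (adjusted p = 0.000802), and Oat, of ornithine breakdown, fell 3.02-fold, from a lowest vehicle library of 189 CPM to a highest weight-matched library of 130 CPM.

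**Figure D3:**
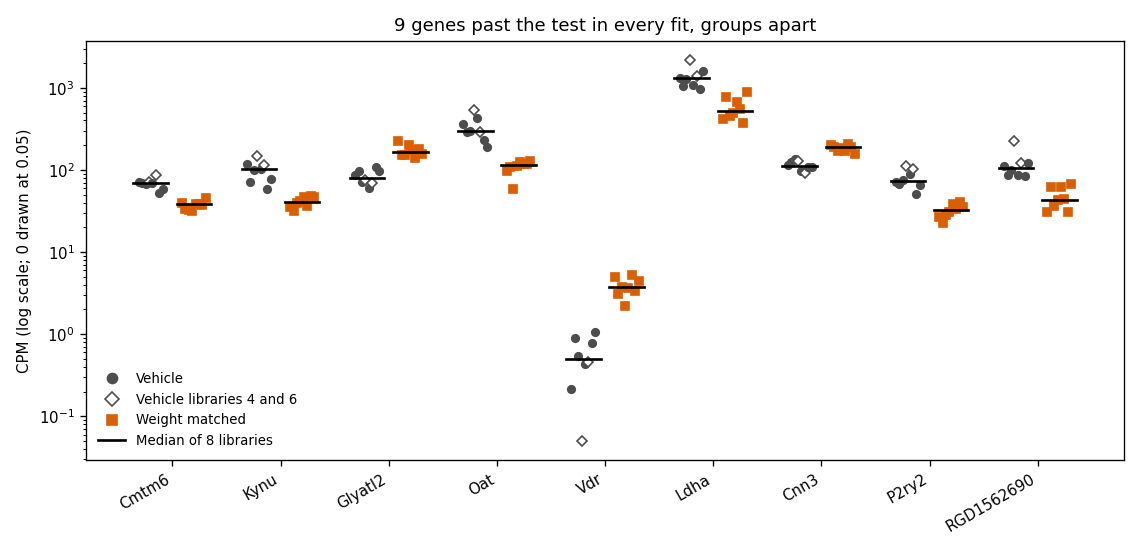
Levels in CPM on a log scale of 9 genes whose groups did not overlap, with 1 point per library (filled circles vehicle, open diamonds vehicle libraries 4 and 6, squares weight matched) and a bar at the median of 8 libraries. Each gene passed with and without vehicle libraries 4 and 6, by DESeq2, in the 2 groups alone and in each fit leaving out 1 library. A value of 0 (Vdr in vehicle library 4) is drawn at 0.05 CPM. For each gene the lowest point of one group lies beyond the highest point of the other, as for Cmtm6 at 52.4 CPM against 45.4 CPM.

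For every gene list below, the shares over all genes to set beside its counts were 2.49% higher and 4.53% lower with all libraries. Without vehicle libraries 4 and 6 they were 3.59% higher and 4.58% lower. Of 18 tested genes of fat synthesis, 10 fell and none rose with all libraries, against 4.53% of all genes that fell. The number that fell was 7 under voom with quality weights and 7 in the fit of the 2 groups alone. The list had a median log2 fold change of -0.86 against -0.014 over all genes. Without vehicle libraries 4 and 6, 9 fell, 1 rose and the median was -0.43 against 0.006 over all genes, so the group was still lower but by a smaller amount. Between 8 and 10 members fell in each fit that left out 1 library. The summed level of the list ran from 3830 to 18700 CPM in vehicle livers, and to 9410 CPM at most without libraries 4 and 6, against 3310 to 5410 CPM in weight-matched livers.

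The largest of these falls was in desaturation. Scd, the desaturase gene that makes oleate and palmitoleate, was at 646 CPM or more in every vehicle library and at 421 CPM or less in every weight-matched library (log2 -3.24, SE 0.56, adjusted p = 0.00142; -2.65 and adjusted p = 0.0081 without libraries 4 and 6). The genes that desaturate and lengthen polyunsaturated fatty acids also fell. Fads1, the delta-5 desaturase gene, went from 503, 1140 and 2140 CPM to 367, 480 and 794 CPM (log2 -1.21, SE 0.27, adjusted p = 0.0096), and Fads2, the delta-6 desaturase gene, by 1.02 on the log2 scale (adjusted p = 0.0329). Elovl5, a fatty acid elongase gene, fell by 1.10 (adjusted p = 0.0142). Both desaturase genes and Elovl5 changed by nearly the same amount without libraries 4 and 6, at -1.07, -1.01 and -1.14.

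Acacb encodes acetyl-CoA carboxylase 2, whose product malonyl-CoA holds back the entry of fatty acids into mitochondria. It stood at 133, 257 and 437 CPM in vehicle and at 79.9, 93.3 and 176 CPM in weight-matched livers (log2 -1.24, SE 0.26, adjusted p = 0.00636; -1.13 without libraries 4 and 6). Slc25a1, the citrate carrier gene, fell by 0.86, or by 0.45 without those libraries (adjusted p = 0.0183).

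Several central members did not pass in either fit. Fasn, the fatty acid synthase gene, stood at -0.87 (adjusted p = 0.204) and at -0.25 without libraries 4 and 6, Acly at -0.68 (adjusted p = 0.153) and Acaca at -0.08 (adjusted p = 0.886). Srebf1, the gene of the SREBP-1 transcription factor, ran from 291 to 929 CPM in vehicle and from 229 to 618 CPM in weight-matched livers (log2 -0.43, adjusted p = 0.215). Mid1ip1, which encodes an activator of acetyl-CoA carboxylase, was the member that rose without libraries 4 and 6 (log2 0.93, adjusted p = 0.0106; 0.58 and adjusted p = 0.127 with all libraries).

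Among 23 genes of glyceride synthesis, lipid droplets and patatin lipases, 4 fell and 1 rose with all libraries, and 4 fell and 1 rose without 4 and 6, with medians of -0.16 and -0.07. Of all genes 4.53% and 4.58% fell, and 2.49% and 3.59% rose. The members differed in part, since Agpat3, Pnpla3 and Pnpla5 fell in both fits and no gene rose in both. Pnpla3, a lipid-droplet protein gene that feeding switches on, showed how uneven the vehicle group was. Its 8 vehicle libraries held 1.65, 40.9, 46.4, 55.4, 64.8, 189, 805 and 1340 CPM, the last 2 being libraries 4 and 6 and the first library 7. The weight-matched libraries held 2.02, 2.02, 2.13, 3.2, 4.06, 5.07, 5.34 and 12 CPM. All vehicle libraries but number 7 were thus above all weight-matched ones. The change was -6.15 (SE 1.07, adjusted p = 0.00144), and -3.89 (adjusted p = 0.00993) without libraries 4 and 6. Under voom with quality weights Pnpla3 did not pass (adjusted p = 0.0969), and 2 members of the list fell and 2 rose. Pnpla5, a neighbouring patatin lipase gene, behaved alike, with 0.097 CPM in vehicle library 7 and 3.12 to 206 CPM in the other vehicle libraries, against 0.894 CPM or less in weight-matched livers. Agpat3, an acyltransferase gene of phospholipid and glyceride synthesis, fell modestly, from a median of 73.2 to a median of 60.1 CPM (log2 -0.45, adjusted p = 0.0169). Dgat2, Cidec, Plin2 and Hilpda did not pass in either fit, with changes between -0.28 and 0.02.

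The promoter of Pnpla3 is printed because this gene fell the furthest of those with a level above 1 CPM in every vehicle library. It is the RefSeq sequence of build GRCr8, chr7:117173278-117173577, plus strand, covering 250 bases before and 50 bases after the annotated start. Capitals mark CCAAT (the NF-Y box, here as its reverse complement ATTGG) and TGACGTCA (the cAMP response element).
Pnpla3: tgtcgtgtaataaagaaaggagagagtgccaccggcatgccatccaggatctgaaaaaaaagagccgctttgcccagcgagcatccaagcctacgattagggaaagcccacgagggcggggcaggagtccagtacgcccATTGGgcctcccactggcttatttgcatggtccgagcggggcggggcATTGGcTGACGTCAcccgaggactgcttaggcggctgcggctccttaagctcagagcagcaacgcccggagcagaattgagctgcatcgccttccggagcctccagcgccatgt
The cAMP response element began 58 bases before the start, with 1 base between it and the nearer ATTGG. Over 33469 RefSeq rat promoters of this length, searched on both strands, 37.5% held CCAAT and 1.83% held TGACGTCA. Promoter sequences were matched for 74 of the 98 genes that the naming rule picked. A match of letters is a description and not a binding site.

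Cholesterol synthesis and uptake genes fell with all libraries, in 6 of 25 members with none higher (median -0.53), but without libraries 4 and 6 only Nsdhl passed (median -0.25). The count was 2 when vehicle library 4 or vehicle library 6 alone was left out, 3 when weight-matched library 26 was and 11 when vehicle library 7 was. Nsdhl, a sterol dehydrogenase gene, ran from 250 through 380 to 499 CPM in vehicle livers and from 225 through 254 to 316 CPM in weight-matched livers, so the groups overlapped. Its change was -0.53 (SE 0.12, adjusted p = 0.0103) and -0.43 without libraries 4 and 6. Tm7sf2, a sterol reductase gene, and Pmvk, the phosphomevalonate kinase gene, fell by 1.31 and 1.12 with all libraries, and at -0.79 and -0.39 did not pass without libraries 4 and 6 (adjusted p = 0.144 and 0.259). Insig1, which restrains SREBP processing, was at 69.9, 257 and 975 CPM in vehicle and at 87.6, 146 and 202 CPM in weight-matched livers. It passed with all libraries (log2 -1.51, adjusted p = 0.0276) and not without 4 and 6 (log2 -0.75, adjusted p = 0.225).

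The promoter of Nsdhl is shown as the member that passed both fits, from GRCr8 chrX:155817110-155817409, plus strand, with CCAAT or its reverse complement ATTGG in capitals.
Nsdhl: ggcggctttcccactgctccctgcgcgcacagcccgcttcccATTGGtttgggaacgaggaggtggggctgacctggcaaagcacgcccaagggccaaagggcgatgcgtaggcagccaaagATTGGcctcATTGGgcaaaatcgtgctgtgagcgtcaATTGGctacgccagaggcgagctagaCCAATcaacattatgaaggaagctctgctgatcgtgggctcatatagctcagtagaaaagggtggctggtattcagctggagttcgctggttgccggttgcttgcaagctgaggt
It held 5 such boxes. Of 17 cholesterol promoters matched, 14 held at least 1 CCAAT, against 37.5% of all promoters. The sterol response letters TCACNCCAC were in none of the 17 windows and in 1.12% of all promoters, which says only that these letters are not within these 300 bases.

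**Figure D4:**
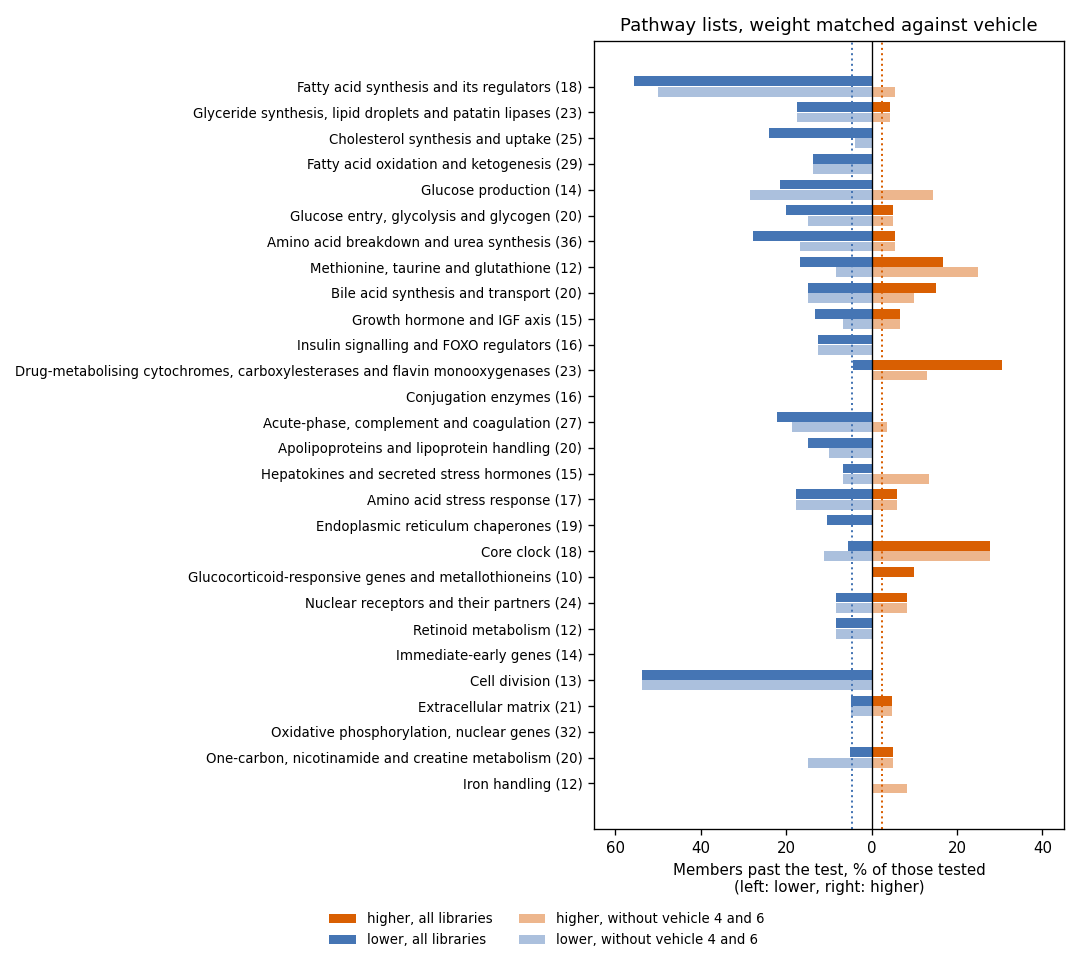
Bars give the percent of tested members of each pathway list that passed the test, lower to the left and higher to the right, with all libraries (dark) and without vehicle libraries 4 and 6 (pale). The number of tested members is in brackets, and dotted lines mark the share over all genes, 4.53% lower and 2.49% higher. Fatty acid synthesis and cell division reach furthest to the left, with 10 of 18 and 7 of 13 members lower.

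Of 29 genes of fatty acid oxidation and ketogenesis, none rose and 4 fell in each fit (median -0.19, and -0.12 without libraries 4 and 6). The shares of all genes that fell were 4.53% and 4.58%. Etfdh, which passes electrons from fatty acid oxidation to ubiquinone, stood at 205, 242 and 268 CPM in vehicle and at 160, 173 and 251 CPM in weight-matched livers (log2 -0.38, SE 0.08, adjusted p = 0.00867). The value of 251 CPM was weight-matched library 32, and the other 7 were all below the lowest vehicle library. Fabp1, the liver fatty acid binding protein gene, was at 890, 1180 and 3840 CPM against 663, 740 and 974 CPM. Its change of -1.02 became -0.49 (adjusted p = 0.0141) without libraries 4 and 6. Cpt1a, the gate into mitochondria, stood at -0.04 (adjusted p = 0.924), and at 0.04 with scaling by library totals. Ppara, the fasting receptor gene, was at 3.28 CPM in vehicle library 4 and at 31.7 to 86.6 CPM in the other vehicle libraries, against 54.9 to 114 CPM in weight-matched livers (adjusted p = 0.413).

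In glucose production 3 of 14 fell and none rose with all libraries, and 4 fell and 2 rose without libraries 4 and 6. Of all genes 4.53% fell and 2.49% rose, and 4.58% and 3.59% without libraries 4 and 6. Lists can share members: apart from Fbp1, the genes of this list that fell in both fits are also counted under amino acid breakdown. Fbp1, the fructose bisphosphatase gene, was at 562, 713 and 1360 CPM in vehicle and at 474, 503 and 546 CPM in weight-matched livers, without overlap (log2 -0.57, SE 0.13, adjusted p = 0.0115; -0.38 and adjusted p = 0.00495 without libraries 4 and 6). Pck1, the gatekeeper of the pathway, was at 2610 to 5260 CPM against 2560 to 4300 CPM (log2 -0.20, adjusted p = 0.364), and G6pc, the glucose-6-phosphatase gene, at 164 to 609 CPM against 71.0 to 926 CPM (log2 0.56, adjusted p = 0.367). Neither passed the test, and the groups overlapped for both. Slc37a4, which carries glucose-6-phosphate to that phosphatase, passed only without libraries 4 and 6 (log2 0.45, adjusted p = 0.00334), as did Pc, the pyruvate carboxylase gene (log2 -0.44, adjusted p = 0.00423).

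Of 20 genes of glucose entry, glycolysis and glycogen, 4 fell and 1 rose (3 and 1 without libraries 4 and 6). The shares of all genes were 4.53% lower and 2.49% higher (4.58% and 3.59% without libraries 4 and 6). Gckr, a regulator of hepatic sugar use, fell from 82.8, 132 and 156 CPM to 37.1, 59.5 and 101 CPM (log2 -0.97, SE 0.17, adjusted p = 0.00154), and 7 of 8 weight-matched libraries were below the lowest vehicle library. On the glycogen side, Pygl, the glycogen phosphorylase gene, fell by 0.31 (adjusted p = 0.0126), and Ugp2, which makes UDP-glucose for glycogen, rose from 215, 499 and 535 CPM to 496, 754 and 941 CPM (log2 0.73, SE 0.18, adjusted p = 0.0174).

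Amino acid breakdown was lower in part. Of 36 genes 10 fell and 2 rose with all libraries (median -0.23), and 6 fell and 2 rose without libraries 4 and 6 (median -0.13), with 6 falling also when vehicle library 6 or weight-matched library 26 alone was left out. Of all genes 4.53% fell and 2.49% rose, and 4.58% and 3.59% without libraries 4 and 6. Hgd, the homogentisate dioxygenase gene of tyrosine breakdown, went from 132, 178 and 395 CPM to 91.4, 115 and 132 CPM, with no overlap (log2 -0.85, SE 0.17, adjusted p = 0.00368). Gls2, the liver glutaminase gene, fell by 0.47 (adjusted p = 0.0224). Afmid, the formamidase gene of the kynurenine path, rose from 135, 185 and 242 CPM to 204, 249 and 274 CPM (log2 0.44, adjusted p = 0.0144). Of the urea cycle, Ass1 and Asl fell by 0.68 and 0.63 with all libraries (adjusted p = 0.037 and 0.0284). Without libraries 4 and 6 they stood at -0.45 and -0.40 and did not pass, and Cps1, Otc and Arg1 did not pass in either fit.

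In methionine, taurine and glutathione metabolism (12 genes), 2 rose and 2 fell with all libraries, and 3 rose and 1 fell without libraries 4 and 6. Of all genes 2.49% rose and 4.53% fell, and 3.59% and 4.58% without libraries 4 and 6. Gclm, the regulatory subunit of the enzyme that begins glutathione synthesis, rose from 84.9, 134 and 176 CPM to 186, 243 and 336 CPM, without overlap (log2 0.93, SE 0.15, adjusted p = 0.00101; 0.85 without libraries 4 and 6). Its catalytic partner Gclc stood at 0.25 (adjusted p = 0.32). Bhmt, which remethylates homocysteine with betaine, fell from 1630, 2280 and 3350 CPM to 519, 970 and 1890 CPM (log2 -1.19, SE 0.30, adjusted p = 0.0201). Csad, of taurine synthesis, was at 69.4 to 138 CPM in the vehicle libraries other than 4 and 6 and at 185 to 265 CPM in weight-matched livers, while library 4 held 262 CPM. Its change was 0.77 with all libraries (adjusted p = 0.0303) and 1.12 without the 2 libraries (adjusted p = 0.000791).

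One-carbon, nicotinamide and creatine metabolism gave 1 higher and 1 lower gene of 20, and 1 higher and 3 lower without libraries 4 and 6. Over all genes the shares were 2.49% higher and 4.53% lower, and 3.59% and 4.58% without libraries 4 and 6. Mthfd1, a folate enzyme gene, rose from 157, 176 and 217 CPM to 200, 255 and 319 CPM (log2 0.52, SE 0.10, adjusted p = 0.0018). Nnmt, the nicotinamide methyltransferase gene, fell from 48.7, 76.0 and 377 CPM to 34.7, 42.0 and 55.8 CPM. Library 4 held the 377 CPM, and the change of -1.34 became -0.73 (adjusted p = 0.04) without libraries 4 and 6.

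Of 17 genes that ATF4 switches on in amino acid shortage, 1 rose and 3 fell in both fits, beside 1.84% and 3.19% of all genes. The summed level of the list ran from 946 through 1080 to 1380 CPM in vehicle livers and from 599 through 755 to 873 CPM in weight-matched livers, without overlap. The list median was -0.02, and 0.02 without libraries 4 and 6, with 8 changes above 0 and 9 below with all libraries. A sum follows its abundant members, among them Atf5 and Aldh1l2 below, and does not describe the list gene by gene. Phgdh, the first enzyme gene of serine synthesis, was at 0.304 to 1.17 CPM in 7 vehicle libraries and at 5.23 CPM in vehicle library 4. In weight-matched livers it ran from 0.969 through 7.5 to 13.8 CPM, with library 32 the lowest (log2 2.64, SE 0.64, adjusted p = 0.0142; 3.23 without libraries 4 and 6). Atf5, a transcription factor gene of this response, fell without overlap, from 307, 369 and 635 CPM to 111, 198 and 258 CPM (log2 -1.05, SE 0.19, adjusted p = 0.00153). Aldh1l2, a mitochondrial folate enzyme gene, fell by 0.82 (adjusted p = 0.0209), from a median of 255 CPM to a median of 132 CPM. The classic members Asns, Chac1, Ddit3 and Trib3 did not pass in either fit.

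Bile acid genes (20) moved both ways, 3 higher and 3 lower with all libraries, and 2 higher and 3 lower without libraries 4 and 6. The shares of all genes were 2.49% higher and 4.53% lower, and 3.59% and 4.58% without libraries 4 and 6. The number of bile acid genes that rose was 1 without weight-matched library 31 and in the fit of the 2 groups alone, and 6 with scaling by library totals. Cyp27a1, which begins the alternative route of bile acid synthesis, rose from 215, 265 and 330 CPM to 250, 354 and 450 CPM (log2 0.39, adjusted p = 0.0449; 0.49 and adjusted p = 0.0111 without libraries 4 and 6). Amacr, a racemase gene of side-chain shortening, fell by 0.59 (adjusted p = 0.0176). Slco1a4, an organic anion uptake carrier gene, rose by 0.67 with all libraries (adjusted p = 0.0232) and at 0.55 did not pass without libraries 4 and 6.

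Among 20 apolipoprotein and lipoprotein genes 3 fell and none rose, beside 4.53% of all genes that fell. Without libraries 4 and 6, 2 fell, beside 4.58% of all genes. Scarb1, the receptor gene for HDL cholesterol, fell from 129, 164 and 180 CPM to 81.7, 102 and 139 CPM (log2 -0.61, SE 0.10, adjusted p = 0.00101), and Lipc, the hepatic lipase gene, from 344, 435 and 556 CPM to 279, 304 and 345 CPM (log2 -0.53, SE 0.09, adjusted p = 0.00144). For both genes 7 of 8 weight-matched libraries were below every vehicle library. Apoa1, the main HDL protein gene, fell by 1.32 (adjusted p = 0.0121) with all libraries, and at -0.86 did not pass without libraries 4 and 6 (adjusted p = 0.0722). Apob and Mttp, which build VLDL, stood at -0.07 and 0.05 and did not pass.

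Of 23 drug-metabolising cytochromes, carboxylesterases, flavin monooxygenases and their regulators, 7 rose and 1 fell with all libraries, and 3 rose and none fell without libraries 4 and 6. Of all genes 2.49% rose with all libraries and 3.59% without libraries 4 and 6. The number of list members that rose was 3 or 4 when any one of vehicle libraries 1, 5, 6 and 8 or weight-matched libraries 25, 27, 30 and 32 was left out. Fmo1, a flavin monooxygenase gene, rose in both fits, from 41.4, 119 and 244 CPM to 197, 306 and 368 CPM (log2 1.28, SE 0.32, adjusted p = 0.0174). Nr1i3, the gene of the drug-sensing receptor CAR, was at 7.61, 22.0 and 65.7 CPM against 25.6, 75.3 and 115 CPM and passed with all libraries only (log2 1.44, adjusted p = 0.0374). Cyp2c7 fell from 1400, 1850 and 3360 CPM to 116, 700 and 1540 CPM with all libraries (log2 -1.47, adjusted p = 0.0234; -1.37 and adjusted p = 0.0605 without 4 and 6). None of 16 conjugation enzymes (UGT, SULT, GST and TPMT genes) passed in either fit. The cytochrome, carboxylesterase, Scd and haemoglobin genes have close relatives in the rat, with which reads may have been shared.

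Among 24 nuclear receptors and partners, 2 rose and 2 fell in each fit, of which 1, Vdr, rose and 2 fell in both. Of all genes 1.84% rose and 3.19% fell in both. Rarb, a retinoic acid receptor gene, fell from 16.3, 25.8 and 38.7 CPM to 11.5, 15.5 and 16.6 CPM (log2 -0.78, SE 0.17, adjusted p = 0.00722), and Nr1h3, the LXR-alpha gene, by 0.36 (adjusted p = 0.0194). Of 12 retinoid genes only Sdr16c6, a retinol dehydrogenase family gene, passed. It was listed at 0 in the median weight-matched library and reached 0.522 CPM in library 32, the one weight-matched library above the level of 3 counts, against 0.0612 to 94.4 CPM in vehicle livers.

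Of 18 clock genes 5 rose in both fits, beside 2.49% and 3.59% of all genes, and the list median was 0.19 and 0.13. With all libraries 1 clock gene fell and without libraries 4 and 6 it was 2, beside 4.53% and 4.58% of all genes. Clock proteins of the PER and CRY families are the repressors of the daily cycle, and REV-ERB-alpha represses other genes of the same cycle. Cry1 rose from 6.54, 10.7 and 18.6 CPM to 16.3, 21.5 and 24.9 CPM (log2 0.86, SE 0.18, adjusted p = 0.00498). Per1, Per2 and Per3 rose by 0.68, 0.54 and 0.52 (adjusted p = 0.0319, 0.0223 and 0.0343), and by 0.48, 0.39 and 0.36 without libraries 4 and 6. Nr1d1, the REV-ERB-alpha gene, fell from 71.3, 125 and 163 CPM to 58.9, 75.0 and 96.5 CPM (log2 -0.64, SE 0.17, adjusted p = 0.0219).

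Other genes of the clock list did not pass with all libraries: Dbp was at 202 to 467 CPM against 181 to 332 CPM (log2 -0.23, adjusted p = 0.3), and Arntl, Nr1d2, Tef and Nfil3 did not pass either. The number of clock genes that rose was 3 without any one of vehicle libraries 5 and 6 and weight-matched libraries 26, 27, 29 and 31, and 2 in the fit of the 2 groups alone. Fkbp5, a glucocorticoid-induced gene, rose by 0.77 with all libraries (adjusted p = 0.0224) and at 0.71 did not pass without 4 and 6. None of 14 immediate-early genes, such as Fos, Jun and Egr1, passed in either fit.

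The growth hormone and IGF axis gave 1 higher and 2 lower genes of 15 with all libraries, and 1 higher and 1 lower without libraries 4 and 6. Over all genes the shares were 2.49% higher and 4.53% lower, and 3.59% and 4.58% without libraries 4 and 6. No gene of this list fell when any one of vehicle libraries 3, 6 and 8 or weight-matched libraries 25, 26, 27, 29, 30 and 31 was left out, with scaling by library totals, without the low-count filter or in the fit of the 2 groups alone. None rose under voom. Igfbp2, a binding protein gene for insulin-like growth factors, rose from 1.43, 2.29 and 3.49 CPM to a median of 9.42 CPM from a lowest library of 1.94 CPM, unevenly, since weight-matched libraries 26 and 32, at 3.45 and 1.94 CPM, were within the vehicle range and the other 6 above it (log2 2.92, adjusted p = 0.00223; 2.96 without libraries 4 and 6). Ghr, the growth hormone receptor gene, was at a median of 692 CPM against 540 CPM. Its change of -0.29 was close to the threshold (adjusted p = 0.047), passed in 4 of the 16 fits that left out 1 library, and was -0.33 (adjusted p = 0.0117) without libraries 4 and 6. Igf1 stood at 618 to 799 CPM in the 6 vehicle libraries other than 4 and 6 and at 567 to 759 CPM in weight-matched livers, with 2010 CPM in vehicle library 4. In insulin signalling 2 of 16 fell in each fit, beside 4.53% and 4.58% of all genes. Among them was Grb14, an inhibitor of the insulin receptor (log2 -0.37, SE 0.08, adjusted p = 0.00805). Irs2, Igfbp1 and Foxo1, which rise in fasting, stood at 0.41, 0.42 and 0.20 and did not pass (adjusted p = 0.454, 0.634 and 0.686), and Foxo1 stood at -0.06 without libraries 4 and 6.

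Acute-phase, complement and coagulation genes fell in 6 of 27 cases with none higher, beside 4.53% of all genes that fell. Without libraries 4 and 6 they fell in 5 cases with 1 higher, beside 4.58% of all genes lower and 3.59% higher. Their summed level ran from 75400 through 84200 to 110000 CPM in vehicle livers and from 61200 through 70000 to 76300 CPM in weight-matched livers. Hpx, the haem-binding hemopexin gene, fell from 6160, 6710 and 15800 CPM to 3980, 5180 and 5610 CPM, without overlap (log2 -0.69, SE 0.15, adjusted p = 0.00875; -0.42 without libraries 4 and 6). C9, the last complement component, fell by 0.33 (adjusted p = 0.0232). The fibrinogen genes Fga, Fgb and Fgg, with -0.18, -0.30 and -0.22, did not pass. The number that fell was 3 when any one of weight-matched libraries 25, 27, 29, 30 and 31 was left out. Hamp, the hepcidin gene of iron control, was the member that rose without libraries 4 and 6 (log2 0.99, adjusted p = 0.0111). Inhbc, an activin subunit gene made in liver, fell by 0.57 (SE 0.13, adjusted p = 0.0112), and was the one gene to fall among 15 hepatokine genes with all libraries. Without libraries 4 and 6 it fell by 0.51, and 2 of the 15 rose, Fgf21 (log2 0.70, adjusted p = 0.0456) and Lect2 (log2 0.40, adjusted p = 0.0213). Of 19 endoplasmic reticulum chaperone genes 2 fell with all libraries and none without 4 and 6, and of 12 iron genes none passed with all libraries and 1 rose without 4 and 6. Of all genes 4.53% fell with all libraries, and 3.59% rose without 4 and 6.

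Genes of cell division were scarce in these livers and fell. Of 13 tested members 7 fell and none rose in each fit, beside 4.53% and 4.58% of all genes that fell. The list median was -0.87, and -1.05 without libraries 4 and 6. Mcm5, a subunit of the helicase that opens DNA for replication, was at 1.46, 2.48 and 15.6 CPM in vehicle and at 0.328, 1.05 and 1.78 CPM in weight-matched livers (log2 -2.06, SE 0.44, adjusted p = 0.00701). Without libraries 4 and 6 its groups did not overlap (log2 -2.28). Its partners Mcm3, Mcm4 and Mcm6 fell by 1.22, 0.72 and 1.35 (adjusted p = 0.0314, 0.0202 and 0.0255). Mki67, a marker of dividing cells, fell by 0.90 (adjusted p = 0.0493) and Top2a, a topoisomerase gene, by 1.25 (adjusted p = 0.0371). Mcm2, Pcna and Tyms did not pass, with changes of -0.53, -0.33 and 0.45.

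Vehicle library 5 held the highest level of all 6 genes that fell in both fits, and vehicle library 2 the second highest of Mcm3, Mcm4, Mcm5 and Mcm6. The number that fell dropped to 3 when vehicle library 5 was left out and to 4 for vehicle library 2. Among the weight-matched libraries it dropped to 2 for number 26, to 3 for number 25 and to 4 for each of 27, 28, 29 and 31. It was 1 in the fit of the 2 groups alone and 2 with scaling by library totals. Mcm5 passed in all of these fits, at -1.39 without vehicle library 5 (adjusted p = 0.0137). The count for the list thus varied with single libraries at these low levels.

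Promoters of Mcm3, Mcm5 and Mcm6 are printed because each of these helicase genes fell. They are RefSeq sequences of build GRCr8 at chr9:30733697-30733996 (minus strand), chr19:13488563-13488862 (plus strand) and chr13:42404303-42404602 (minus strand), each 5′ to 3′ along the gene. Capitals mark the E2F element TTTCNCGC, the NF-Y box CCAAT and the cAMP response element TGACGTCA, on either strand.
Mcm3: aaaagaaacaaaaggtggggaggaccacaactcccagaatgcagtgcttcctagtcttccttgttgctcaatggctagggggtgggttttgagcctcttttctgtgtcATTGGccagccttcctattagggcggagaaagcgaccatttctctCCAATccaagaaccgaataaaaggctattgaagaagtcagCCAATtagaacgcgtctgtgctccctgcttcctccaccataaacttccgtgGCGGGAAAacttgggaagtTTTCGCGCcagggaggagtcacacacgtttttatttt
Mcm5: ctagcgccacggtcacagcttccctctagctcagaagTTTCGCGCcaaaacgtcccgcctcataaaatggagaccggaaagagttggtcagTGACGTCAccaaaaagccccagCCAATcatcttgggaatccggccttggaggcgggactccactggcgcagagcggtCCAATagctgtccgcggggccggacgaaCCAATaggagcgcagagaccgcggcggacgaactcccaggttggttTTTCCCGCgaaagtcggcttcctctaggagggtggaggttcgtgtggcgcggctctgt
Mcm6: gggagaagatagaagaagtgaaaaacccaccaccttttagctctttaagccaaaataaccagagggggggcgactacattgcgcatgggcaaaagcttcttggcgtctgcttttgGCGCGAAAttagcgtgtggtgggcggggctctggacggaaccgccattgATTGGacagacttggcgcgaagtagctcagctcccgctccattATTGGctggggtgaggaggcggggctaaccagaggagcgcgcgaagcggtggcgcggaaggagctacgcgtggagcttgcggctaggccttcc
Mcm3 and Mcm5 each held 2 E2F elements and 3 NF-Y boxes, and Mcm6 held 1 and 2. Of 12 cell division promoters matched, 5 held TTTCNCGC and 9 held CCAAT, against 2.02% and 37.5% of all rat promoters. The E2F letters were added to the search after the sequences had been seen.

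Red cell genes fell as well. Of 4 tested markers, 3 fell in every fit and alternative run. Hba-a2, an alpha-globin gene, was at 79.0, 115 and 419 CPM in vehicle and at 32.1, 49.7 and 80.6 CPM in weight-matched livers (log2 -1.67, SE 0.28, adjusted p = 0.00122; -1.36 without libraries 4 and 6). Hbb, the beta-globin gene, fell by 1.76 (adjusted p = 0.0027) and Alas2, the haem-making enzyme gene of red cell precursors, by 1.98 (adjusted p = 0.00495). The fourth, Slc4a1, stood at 0.76 (adjusted p = 0.209). The summed level of the markers ran from 129 through 192 to 756 CPM in vehicle livers, where library 4 had the highest haemoglobin levels, and from 63.4 through 89.9 to 140 CPM in weight-matched livers. The part of blood left in the tissue in these values was not tested.

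**Figure D5:**
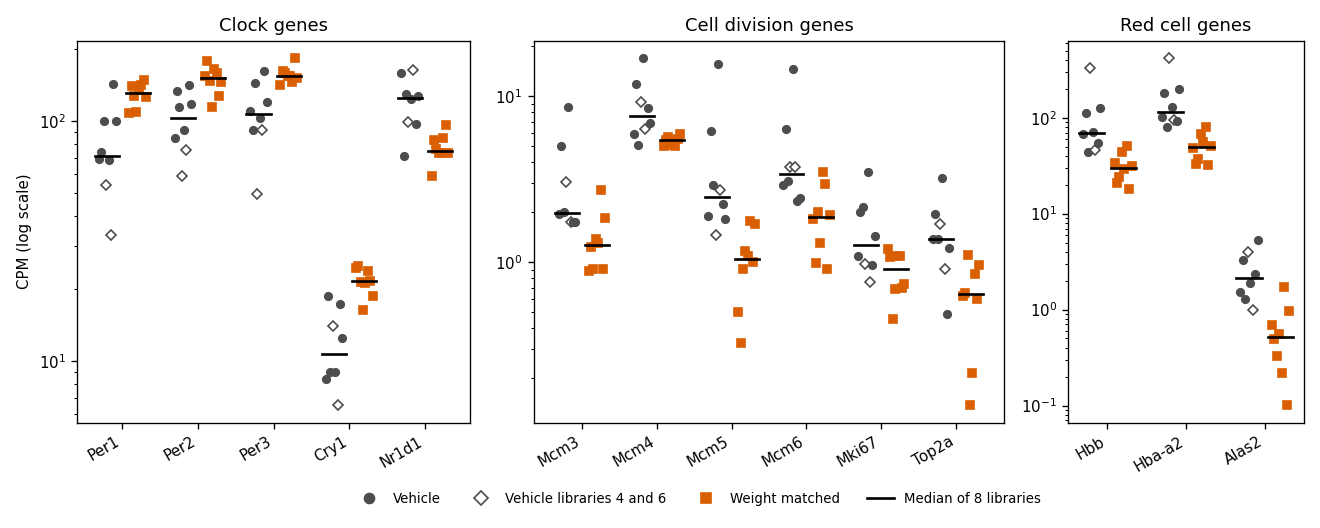
Levels in CPM on a log scale of clock, cell division and red cell genes, with 1 point per library (filled circles vehicle, open diamonds vehicle libraries 4 and 6, squares weight matched) and a bar at the median of 8 libraries. Cry1 is higher in weight-matched livers, with 7 of 8 libraries above every vehicle library. Vehicle library 5 gives the highest point of each cell division gene, 15.6 CPM for Mcm5.

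None of 13 Kupffer cell markers, 9 stellate cell markers, 6 lymphocyte markers or 6 cholangiocyte markers passed with all libraries, and of 9 sinusoidal endothelial markers 1, Lyve1, passed without libraries 4 and 6 (log2 0.30, adjusted p = 0.022). By DESeq2 with all libraries, 3 endothelial markers and 1 stellate marker were higher. The changes leaned to 1 side, with 9 stellate markers above 0 and 0 below (median 0.29), and 8 endothelial markers above and 1 below (median 0.29). Of the Kupffer cell markers 2 were above 0 and 11 below (median -0.22), against a median of -0.014 over all genes. Summed Kupffer cell markers ran from 137 to 877 CPM in vehicle and from 276 to 739 CPM in weight-matched livers. All 6 neutrophil markers were under 1 CPM in each of the 16 libraries, and so were the adipocyte markers Adipoq, Lep, Plin1 and Retn. Skeletal muscle markers summed to 84.3 CPM in 1 vehicle library and to 1.72 CPM or less in weight-matched livers. The labelled tissue held its defining markers: Alb and Hnf4a stood at medians of 84600 and 579 CPM in vehicle and 78600 and 599 CPM in weight-matched livers and did not pass. Of 9 hepatocyte markers 2 fell, and 1 without libraries 4 and 6, Serpina1, the alpha-1-antitrypsin gene (log2 -0.65, adjusted p = 0.00262). Neither of 2 mesothelial markers passed. The pancreatic marker list had 1 tested gene, the elastase gene Cela1, which fell from 5.34, 8.54 and 42.3 CPM to 2.39, 4.35 and 5.94 CPM (adjusted p = 0.0143).

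Of 21 extracellular matrix genes 1 rose and 1 fell in both fits, beside 1.84% higher and 3.19% lower of all genes. Adamts5, a proteoglycan-cutting protease gene, was at 1.26, 6.95 and 14.7 CPM against 0.882, 1.65 and 2.09 CPM (log2 -2.01, SE 0.40, adjusted p = 0.00356). Col6a2, a collagen VI gene, rose by 0.43 (adjusted p = 0.0251). Fibrillar collagens Col1a1 and Col3a1 did not pass. Lox, the lysyl oxidase gene that crosslinks collagen, varied in both groups, from 0.228 to 87.7 CPM in vehicle and from 0.189 to 8.37 CPM in weight-matched livers (log2 -2.92, adjusted p = 0.0427), and passed in 7 of the 16 fits that left out 1 library.

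Other large increases were in genes of low level. Gpr158, an orphan receptor gene, and Syt15, a synaptotagmin gene, were above every vehicle library in all 8 weight-matched libraries, at medians of 3.71 against 0.387 CPM and 3.36 against 0.844 CPM. Srpx rose from a median of 1.33 to 5.29 CPM (log2 2.08, SE 0.35, adjusted p = 0.00126). Bhlha15, a transcription factor gene of secretory cells, rose from 1.25 to 7.63 CPM at the median (log2 2.32, adjusted p = 0.00536). Cyp17a1, a steroid hydroxylase gene, went from 5.44, 7.31 and 15.2 CPM to 7.75, 15.4 and 53.5 CPM (log2 1.53, adjusted p = 0.0114). Rnf186, a ubiquitin ligase gene, was less even: its highest weight-matched library held 6.8 CPM against a median of 0.909 CPM, and it passed in 10 of the 16 fits that left out 1 library.

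Large falls outside the lists included Ptk6, a tyrosine kinase gene. It was at 1.36 to 4.51 CPM in the vehicle libraries other than 4 and 6 and at 0.315 to 0.745 CPM in weight-matched livers, without overlap, while library 4 held 0.243 CPM (log2 -2.22, adjusted p = 0.000267 without 4 and 6). Gbp3, an interferon-induced GTPase gene, fell from 0.291, 1.29 and 2.04 CPM to 0, 0.183 and 0.522 CPM. Prss32, a serine protease gene, and Mmd2 fell by 2.96 and 2.38 (adjusted p = 0.00746 and 0.00805). Plekhd1 was at 0 to 5.02 CPM in vehicle livers and at 0.0821 CPM or less in weight-matched livers, too few counts for a meaningful fold.

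Some calls turned on vehicle libraries 4 and 6. Of the genes that passed only with all libraries (254), 171 were lower and 83 higher. Ltc4s, the leukotriene C4 synthase gene, was at 55.6 CPM in vehicle library 4 and at 0.649 to 4.38 CPM in the 6 vehicle libraries other than 4 and 6, against 3.35 CPM or less in weight-matched livers (log2 -4.25, adjusted p = 0.00867; -2.09 and adjusted p = 0.102 without 4 and 6). Wfdc21 and Irs3, an insulin receptor substrate gene of rodents, had the same pattern, with 73.8 CPM in library 4 and 34.1 CPM in library 6. Of the 404 genes that passed only without libraries 4 and 6, 225 were higher and 179 lower. Abca3, a lipid transporter gene, and Cers6, a ceramide synthase gene, were apart in the 2 groups once libraries 4 and 6 were set aside, with 81.6 to 93.8 CPM against 51.4 to 69.7 CPM and 26.8 to 41.7 CPM against 13.7 to 22.3 CPM (log2 -0.47 and -0.75, adjusted p = 0.000364 and 0.000585). Smim22 rose there by 0.78 (adjusted p = 0.000786). None of 32 nuclear genes of oxidative phosphorylation passed in either fit, and their median of -0.35 became 0.02 without libraries 4 and 6 and -0.04 without library 4 alone.

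The drug-treated livers were measured in the same table and share the fit, and with it the estimate of spread, with the vehicle libraries. A direct test of weight-matched against CagriSema livers passed for 68 of 12702 genes (0.535%), 9 of them among the 98 picked by the naming rule. With vehicle libraries 4 and 6 out of that shared fit it passed for 590 of 12762 genes (4.62%), with 319 above and 271 below their CagriSema level, and 37 of them among the 98. Ldha stood at 922, 1000 and 1280 CPM with CagriSema, above every weight-matched library (log2 of weight matched over CagriSema -0.89, adjusted p = 0.0209). Gclm stood at 105, 141 and 198 CPM, and its highest library lay within the weight-matched range (log2 0.69, adjusted p = 0.041). Cmtm6 stood at 45.8, 50.4 and 65.3 CPM (log2 -0.50, adjusted p = 0.0195), and Nsdhl at 302, 360 and 474 CPM (log2 -0.59, adjusted p = 0.0278). Kynu, at 48.8, 58.6 and 76.4 CPM, Scarb1, at 106, 121 and 148 CPM, and Cry1, at 13.5, 14.2 and 20.3 CPM, did not pass against weight-matched livers with all libraries (adjusted p = 0.11, 0.357 and 0.381). Without vehicle libraries 4 and 6 in the fit Kynu passed (adjusted p = 0.0209), and Scarb1 and Cry1 did not (adjusted p = 0.152 and 0.147). Adamts5 was at 0.639, 1.4 and 2.54 CPM with CagriSema (log2 0.01).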

How the data were processed

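Liver RNA was extracted with an RNeasy kit and libraries carried unique molecular identifiers of a Twist system, per the labels' protocols. The deposited values are raw read counts per gene, made by the authors, and the submitters' processing notes name fastp 0.23.1 and STAR 2.5.2b. Genome build, annotation, counting program, strand and use of the identifiers are not stated in the labels, notes or headers. Replicates were not pooled. 1 count column matched no library and was not used, and 0 rows named no gene. Totals ran from 9888858 to 15929822 counts per library in the 2 groups compared.

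All 23 liver libraries were fitted together in edgeR 4.0.16 (R 4.3.3): filterByExpr, TMM factors, robust quasi-likelihood fit and test of weight matched against vehicle, with Benjamini-Hochberg adjustment and a threshold of 0.05. The fit was repeated without vehicle libraries 4 and 6. The alternatives were DESeq2 1.42.0, other scalings and filters, limma 3.58.1 (voom with sample quality weights), the 2 groups alone, and each library left out. On simulated counts for this comparison (12600 genes, 200 changed), 41.8%, 82.1% and 97% of changes of 0.5, 1 and 2 on the log2 scale were recovered, and 4.55% of calls were false. Each simulated gene had the same spread in every library, and no library stood apart as vehicle libraries 4 and 6 did. These percentages are therefore not error rates of the calls reported above.

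Members and gene lists (28 pathway and 12 cell marker lists, 664 symbols, 33 not matched) were chosen with earlier results of these data known. The 98 named genes were the 12 largest rises and 12 largest falls past the test in both fits, up to 3 genes per list, 17 chosen genes, the 10 of lowest p past every fit with groups apart, and 3 past in only one of the fits for each fit. Other list members are named as examples with their values, and some genes are not reported here. Promoters are RefSeq GRCr8 sequences, matched by symbol. The level of 3 counts covers counting error only, while the SE comes from the quasi-likelihood fit and also covers the spread between libraries.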

Additional observations from a re-analysis of the deposited data

Results flagged for a closer look

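Of 204 groups of 8 libraries examined (each named gene and each share of counts, in each group), 22 had 1 library whose gap to its nearest neighbour was too large for the group's range by Dixon's criterion. Chance flags about 1 in 20 groups.

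Vehicle library 4 accounted for 11 of the 22. It was high for Phgdh at 5.23 CPM (other vehicle libraries 0.304 to 1.17), Fbp1 at 1360 CPM (562 to 742), Hpx at 15800 CPM (6160 to 8120), RGD1562690 at 224 CPM (83.7 to 122) and Smim22 at 13.4 CPM (2.57 to 4.41). It was low for Aldh1l2 at 103 CPM (196 to 269), Ppara at 3.28 CPM (31.7 to 86.6), Foxo1 at 1.82 CPM (17.2 to 42.7), Abca3 at 33.3 CPM (81.6 to 93.8) and Cers6 at 3.28 CPM (14.7 to 41.7). Its ribosomal protein share was 1.84% (0.638% to 0.871%). Vehicle library 6 had a mitochondrial share of 9.29% (4.25% to 5.37%).

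Vehicle library 7 was low for Scarb1 at 129 CPM (155 to 180) and high for Cyp7a1, the rate-limiting enzyme gene of bile acid synthesis, at 306 CPM (46.3 to 107). Vehicle library 2 was high for Mthfd1 at 217 CPM (157 to 182).

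Weight-matched library 32 was the highest for Sdr16c6 at 0.522 CPM (others 0 to 0.201), Etfdh at 251 CPM (160 to 192) and Ltc4s at 3.35 CPM (0 to 0.388). Each of these values lies on the side of the vehicle group. The remaining weight-matched libraries that stood apart were low: library 27 for Oat at 59.4 CPM (97.8 to 130), library 31 for Atf5 at 111 CPM (187 to 258), library 25 for Dbp at 181 CPM (256 to 332) and library 28 for Abca3 at 51.4 CPM (60.4 to 69.7).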

How the results depend on the processing

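Against 892 genes past the test with all libraries, DESeq2 called 1351 (512 higher), scaling by library totals alone gave 563 higher and 282 lower, and the 2 groups fitted alone gave 414 (136 higher, 278 lower). Leaving out 1 library gave 532 (vehicle 6) to 1207 (vehicle 7) genes, with 179 to 468 higher and 353 to 778 lower. The count was 573, 579 and 586 without weight-matched libraries 25, 26 and 27. Without vehicle libraries 4 and 6, leaving out a further library gave 638 (vehicle 5) to 1236 (vehicle 7). The causes were not tested. Of the 98 named genes, 10 lost their call with scaling by totals, 14 under voom with quality weights and 11 in the 2 groups alone. Genes that did not pass under voom included Sdr16c6, Pnpla5, Pnpla3, Prss32, Igfbp2 and Lox (adjusted p from 0.0875 to 0.236). Sdr16c6, Plekhd1, Gbp3 and Rnf186 were not tested in the 2 groups alone. No named gene lost its call under DESeq2, and 5 lost it without vehicle libraries 4 and 6. The naming rule largely set these counts, so they do not measure robustness. It took the largest changes from genes past both fits, and the 10 of lowest p from genes also past DESeq2. Wfdc21, Irs3 and Ltc4s, among the 5, were picked for passing only with all libraries, and Insig1 and Cyp7a1 were the others. Over all genes, 891 of the 892 calls were kept under DESeq2 and 638 without vehicle libraries 4 and 6. Signs turned for genes that did not pass: Cpt1a to 0.04 with totals and -0.15 to 0.04 over the libraries left out, and Foxo1 to -0.06 without vehicle libraries 4 and 6 and -0.07 when CagriSema was also left out. No paired analysis was possible because the library numbers of the 2 groups differ (1 to 8 and 25 to 32) and nothing in the labels links them. Levels under 3 counts, 0.183 to 0.364 CPM, are not resolved.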

Other observations

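Gene groups assembled after the values had been seen are described here as values only. Their counts cannot be weighed against the shares of all genes set beside them, since the members were picked from these data. Of 23 genes of antigen processing and interferon response, 6 fell and none rose with all libraries, beside 4.53% of all genes that fell, and again 6 and none without vehicle libraries 4 and 6, beside 4.58%. Psmb9, an immunoproteasome subunit gene, went from 21.0, 27.7 and 77.3 CPM (lowest, median and highest vehicle library) to 12.9, 15.8 and 21.6 CPM in weight-matched livers (log2 -1.11, SE 0.20, adjusted p = 0.00158; -0.73 without vehicle libraries 4 and 6). Psmb8, its partner, fell by 0.66 (adjusted p = 0.00329) and B2m, the light chain gene of MHC class I, by 0.49 (adjusted p = 0.0246). The interferon-induced genes Ifit1, Mx1 and Isg15 did not pass (adjusted p = 0.766, 0.86 and 0.302).

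Of 17 genes of oxidative defence and aldehyde handling, 7 rose and 1 fell with all libraries, beside 2.49% of all genes that rose, and again 7 and 1 without vehicle libraries 4 and 6, beside 3.59%. Adh7, an alcohol dehydrogenase gene, went from 4.87, 11.9 and 20.8 CPM to 22.9, 31.4 and 40.9 CPM (log2 1.39, SE 0.28, adjusted p = 0.00453), and Idh2, a mitochondrial source of NADPH, from 36.1, 71.4 and 82.5 CPM to 95.8, 118 and 140 CPM (log2 0.79, adjusted p = 0.00144). For both genes all 8 weight-matched libraries lay above all 8 vehicle libraries. Ptgr1 rose by 0.65 and Glrx, the glutaredoxin gene, by 0.52 (adjusted p = 0.00204 and 0.00298). Txnip, the thioredoxin-interacting protein gene, was also among the 7 (log2 0.86, adjusted p = 0.00122), and Idh1 was the gene that fell (log2 -0.38, adjusted p = 0.0114). Nqo1, Txnrd1 and Hmox1 did not pass (adjusted p = 0.798, 0.719 and 0.611).

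Single genes outside the lists were chosen in the same way. Cldn1, a tight junction gene, fell from a median of 17.2 CPM with a lowest library of 7.02 CPM to a median of 3.23 CPM with a highest library of 5.8 CPM (log2 -2.45, SE 0.39, adjusted p = 0.000802). Insig2, which restrains SREBP processing, fell by 1.05 (SE 0.16, adjusted p = 0.000802), and Adh6 rose from 1160, 1410 and 2590 CPM to 2790, 3230 and 3560 CPM (adjusted p = 0.00154). Serpina6, which encodes the corticosteroid-binding globulin, fell by 0.89 (adjusted p = 0.0062). Galt, of galactose metabolism, fell by 0.99 (adjusted p = 0.00146). Of 19 lysosomal genes 6 fell and none rose with all libraries (median log2 fold change -0.19), and 7 fell without vehicle libraries 4 and 6, beside the same shares of 4.53% and 4.58%.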
